A study of Mus musculus with 2 samples.

Results

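Histidine is broken down in the liver by a chain of 4 enzymes that ends in glutamate, and a separate branch turns it into histamine. Hal (histidase) removes ammonia from histidine and leaves urocanate, Uroc1 (urocanase) hydrates urocanate, Amdhd1 (imidazolonepropionase) opens the ring to give formiminoglutamate, and Ftcd (formimidoyltransferase cyclodeaminase) hands the formimino group to tetrahydrofolate and releases glutamate. In the other branch Hdc (histidine decarboxylase) makes histamine, chiefly in mast cells, basophils and some stomach cells, and Hnmt (histamine N-methyltransferase) inactivates it. In liver the chain to glutamate is an enzyme system of hepatocytes, and the breakdown of amino acids is known to be stronger in the periportal part of the lobule, where portal blood enters.

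These 6 genes were followed because Hal was already known, from this same pair of arrays, to be among the genes with the lowest signal in globule-containing relative to globule-free areas. Their values are therefore a description of the arrays and carry no test. All 6 of 6 had 1 probe set that named no other gene, out of 30142 genes named in this way, and all 6 passed the floor described below.

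The 2 groups were globule-containing and globule-free hepatocyte areas, both cut by laser from frozen, Cresyl Violet-stained liver of PIZ mice. Both groups share strain (C57BL/6), age (3 months), standard chow, the absence of treatment and the transgene, which is the human ATZ gene (the Z mutant of alpha-1-antitrypsin) under its own human promoter; areas from mice without the transgene were not analysed here. Each group is 1 array of biotin-labelled material from 50 ng of RNA, pooled from 2 mice, so there is no replicate, and no SD, standard error or p-value is given. The areas were chosen by the presence of stained globules, and the sources used here do not say whether the same mice gave both pools.

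Hepatocyte markers were bright on both arrays. Of 9 hepatocyte genes measured, all 9 were within 2-fold, with summed linear signals of 4846984 in globule-containing areas and 5240372 in globule-free areas. All but Hnf4a lay near the upper end of the scale, at 18.25 or more on both arrays. The array maxima were 19.93 (globule-containing) and 19.80 (globule-free), so these sums cannot show equal hepatocyte RNA. Hnf4a had 9.12 in globule-containing areas and 9.86 in globule-free areas. Other cell types differed between the arrays. All 10 stellate cell and fibroblast genes above the floor were higher by 2-fold or more, and the list's summed signal was 51325 in globule-containing areas against 4883 in globule-free areas. Of 15 macrophage genes 6 were higher and 5 lower by 2-fold or more, with a sum of 342687 in globule-containing areas against 16674 in globule-free areas. The gap in the sum came mostly from Lyz2, with 17.96 in globule-containing areas and 12.62 in globule-free areas. The other higher genes were Gpnmb (277-fold), Ctss (33.8-fold), Cd68 (13.3-fold), Tyrobp (12.4-fold) and Csf1r (2.04-fold). The 5 lower genes were Clec4f, Vsig4, Marco, Timd4 and Cd5l, and Adgre1, C1qa, C1qb and C1qc were within 2-fold. The neutrophil sum was 4733 in globule-containing areas against 305 in globule-free areas, carried by S100a8 and S100a9, while the other 3 genes above the floor (Ly6g, Csf3r and Cxcr2) were within 2-fold. The cholangiocyte sum was 226 in globule-containing areas against 928 in globule-free areas, carried by Tff3 alone, while Krt19, Epcam and Sox9 had positive differences of 0.34, 0.96 and 0.24. Lymphocyte genes summed to 568 in globule-containing areas against 274 in globule-free areas, a gap that came mostly from the general leukocyte gene Ptprc, and 6 of 9 were at background on both arrays. Endothelial genes summed to 4032 in globule-containing areas against 2975 in globule-free areas. In tissue areas of this kind, fewer cells of a type and less RNA per cell cannot be told apart. The part of these other cells in the results below was not tested.

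All 4 enzymes of the chain from histidine to glutamate had lower signals in globule-containing areas, by 5.96-fold to 48.9-fold. Of the histamine enzymes, Hnmt was within 2-fold, and Hdc was too near background to be compared. Hal had a log2 value of 6.89 in globule-containing areas and 12.50 in globule-free areas, a difference of -5.61 and the 4th lowest among 15023 genes above the floor. The floor is a mean log2 signal of 4.76 over both arrays, the median of the probe sets that name 1 gene. Uroc1 had 6.97 in globule-containing areas and 10.62 in globule-free areas, a log2 difference of -3.65, or 12.5-fold lower, and the 34th lowest difference. By rank of signal among the genes above the floor, Hal stood at percentile 52.7 in globule-containing areas and 92.6 in globule-free areas, and Uroc1 at percentile 54.0 in globule-containing areas and 86.4 in globule-free areas.

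Amdhd1 had 8.71 in globule-containing areas and 11.28 in globule-free areas, a log2 difference of -2.58, or 5.96-fold lower, and the 96th lowest. Ftcd, the enzyme that ties the chain to folate, had 8.57 in globule-containing areas and 11.97 in globule-free areas, a log2 difference of -3.40, or 10.6-fold lower, and the 42nd lowest. Both ranked in the upper part of the globule-containing array, Amdhd1 at percentile 74.3 in globule-containing areas and 89.4 in globule-free areas, and Ftcd at percentile 73.0 in globule-containing areas and 91.3 in globule-free areas. None of the 4 fell to background, which was set at 4.85 on the globule-containing and 5.04 on the globule-free array from odorant and vomeronasal receptor probe sets.

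Hdc was close to background on both arrays, with 5.27 in globule-containing areas, just above it, and 4.97 in globule-free areas, just below it. Hnmt was well measured, with 8.89 in globule-containing areas and 8.94 in globule-free areas, a log2 difference of -0.05. Its mean over both arrays lies within the range of the means of the 4 chain enzymes, 8.79 to 10.27, whereas that of Hdc lies under it.

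Of the 6 members, 4 were lower and 0 higher by 2-fold or more. Across all 15023 genes above the floor, 5.26% were lower by 2-fold or more and 6.47% higher by 2-fold or more, and 1.32% were lower by 4-fold or more. That balance turned with the scaling: higher genes made up 55.2% of those past 2-fold in the deposited values, 46.9% after quantile normalization and 47.7% after loess. Among the 1438 genes whose mean signal lies in the range of the 4 enzymes, 9.11% were lower by 2-fold or more. Nothing is read from the members' share, since Hal was picked for its difference on these arrays.

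**Figure D1:**
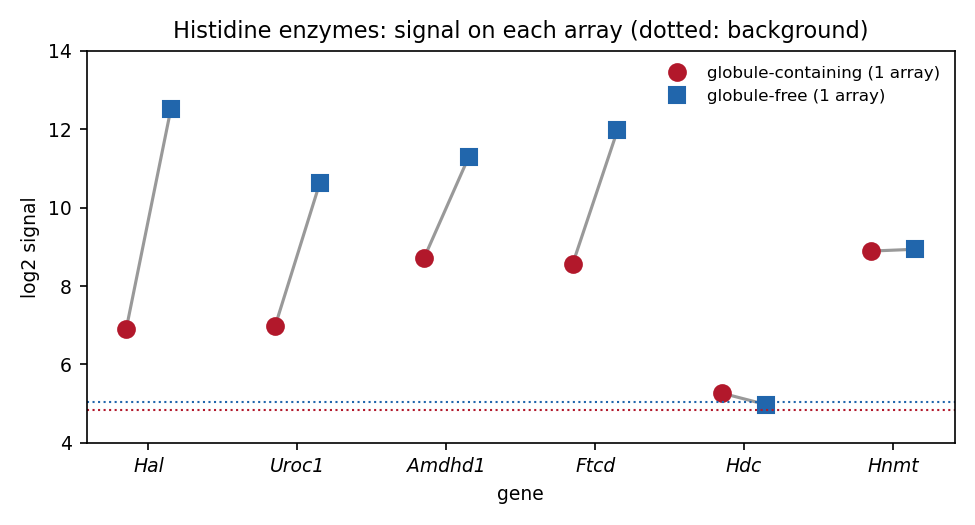
Log2 signal (vertical axis) of the 6 histidine enzymes on the globule-containing array (circles, left of each pair) and the globule-free array (squares, right), with 1 array per group and dotted lines at each array's background. Hal, Uroc1, Amdhd1 and Ftcd lie lower in globule-containing areas, Hnmt lies at 8.89 in globule-containing areas and 8.94 in globule-free areas, and Hdc lies near background.

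The size of the difference varied along the chain. Hal differed by 1.96 log2 units more than Uroc1, 2.21 more than Ftcd and 3.04 more than Amdhd1. No replicate gives an error for these differences. The gap between 2 probe sets of the same gene shows how far probe choice alone moves a difference. For the 177 genes that have 2 such sets past the floor, the median gap between their differences was 0.17 and the 90th percentile was 1.01. Uroc1 and Ftcd differed from each other by 0.25 and Amdhd1 and Ftcd by 0.82, both under that 90th percentile, so their order is not resolved, and Uroc1 and Amdhd1, 1.07 apart, were just beyond it. Hal stood beyond it against each of the other 3, but Hal was picked for its low value on these arrays. The largest gap between 2 probe sets of a gene was 2.82, which exceeds the distance of Hal from Uroc1 and from Ftcd. Each member has a single probe set, so no gap of its own can be given.

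**Figure D2:**
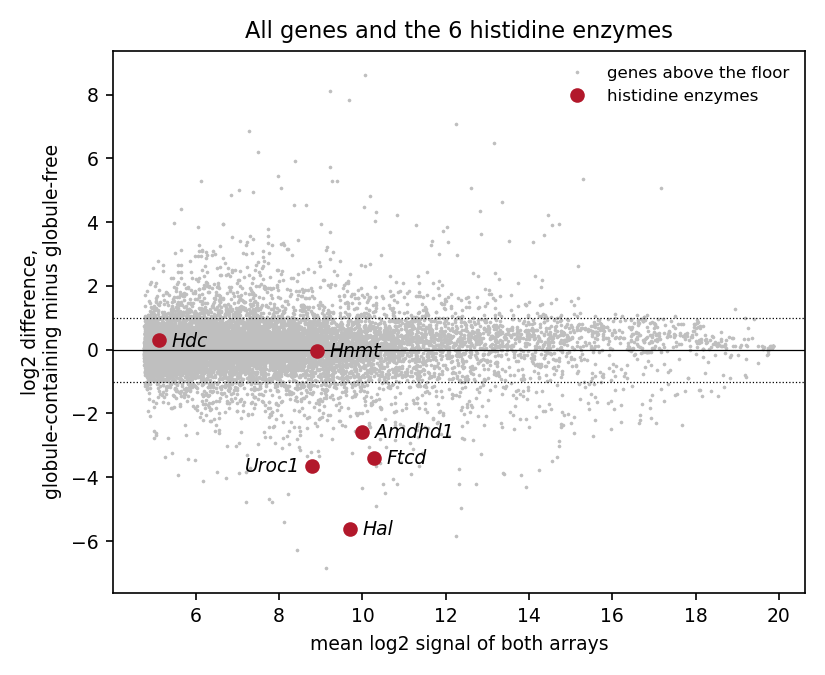
Log2 difference, globule-containing minus globule-free (vertical axis), against the mean log2 signal of both arrays (horizontal axis) for 15023 genes, with the 6 histidine enzymes as large points and dotted lines at 2-fold. Hal, at -5.61, has 3 genes below it, and Hnmt lies at -0.05 amid the bulk of genes of the same brightness.

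The promoters of the 4 enzymes are shown because these genes differ in the same direction while lying in separate places, apart from Hal and Amdhd1. Each run is the 250 bases before the transcription start, 5′ to 3′ on the gene's strand, from the RefSeq promoter table of build GRCm38.p6. Capitals mark matches to the searched motifs. Hal lies at chr10:93488518-93488767 on the plus strand, Uroc1 at chr6:90333039-90333288 on the plus strand, Amdhd1 at chr10:93540034-93540283 on the minus strand and Ftcd at chr10:76575398-76575647 on the plus strand.
Hal: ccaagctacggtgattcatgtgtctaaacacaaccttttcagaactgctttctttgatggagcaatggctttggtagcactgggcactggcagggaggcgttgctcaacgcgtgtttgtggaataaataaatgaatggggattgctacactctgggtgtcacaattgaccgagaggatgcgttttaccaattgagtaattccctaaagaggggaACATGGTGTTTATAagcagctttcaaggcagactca
Uroc1: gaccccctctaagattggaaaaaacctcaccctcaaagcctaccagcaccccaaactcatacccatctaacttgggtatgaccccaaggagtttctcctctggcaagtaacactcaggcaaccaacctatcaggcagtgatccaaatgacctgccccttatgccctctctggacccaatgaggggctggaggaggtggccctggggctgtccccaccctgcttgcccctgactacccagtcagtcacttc
Amdhd1: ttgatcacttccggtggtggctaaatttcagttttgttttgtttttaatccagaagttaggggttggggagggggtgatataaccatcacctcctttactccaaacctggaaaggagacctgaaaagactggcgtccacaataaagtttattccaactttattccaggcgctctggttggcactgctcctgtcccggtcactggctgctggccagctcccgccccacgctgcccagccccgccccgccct
Ftcd: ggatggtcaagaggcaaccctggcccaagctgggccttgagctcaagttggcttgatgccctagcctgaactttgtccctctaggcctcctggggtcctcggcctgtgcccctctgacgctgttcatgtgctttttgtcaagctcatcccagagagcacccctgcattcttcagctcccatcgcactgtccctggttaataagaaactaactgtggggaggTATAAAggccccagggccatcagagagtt

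The TATA box letters TATAAA were found in Hal and Ftcd and in neither Uroc1 nor Amdhd1. In Ftcd they run from base -29 to -24 before the start. In Hal the match is on the opposite strand, from -28 to -23, and shares its first base with a match to the glucocorticoid receptor letters ACANNNTGT from -36 to -28. On either strand, 12.4% of 32851 promoters of this length hold TATAAA and 5.84% hold ACANNNTGT. No match in the 4 promoters was found for the HNF4 letters CAAAGTCCA (0.384% of promoters), the C/EBP letters TTGCNNCAA (1.74%), the cAMP response letters TGACGTNA (2.52%), the forkhead letters TGTTTAC (3.17%), the E-box CACGTG (6.02%) or the HNF1 motif (0.134%). These windows have G and C contents of 45.6% (Hal), 55.6% (Uroc1), 53.2% (Amdhd1) and 56.0% (Ftcd), against a median of 52.4% over all promoters. A match is a description of letters only, and no match says only that these letters are not in this window.

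Hal and Amdhd1 are direct neighbours on chromosome 10 and point towards each other. Of the measured genes around them only Lta4h was above background on both arrays, and it did not share their difference. Lta4h, the leukotriene A4 hydrolase gene on the far side of Hal, had 6.13 in globule-containing areas and 6.20 in globule-free areas. Beyond Amdhd1, Ccdc38 and 4933408J17Rik were at background on both arrays. Snrpf, a splicing protein gene, had 5.22 in globule-containing areas against 4.66, at background, in globule-free areas. Around Uroc1 on chromosome 6, Zxdc had 6.19 in globule-containing areas and 6.31 in globule-free areas, Klf15, a transcription factor of fasting metabolism, had 8.44 in globule-containing areas and 8.67 in globule-free areas, and Vmn1r54, BC048671, Chst13 and Cfap100 were at background on both arrays.

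Ftcd lies elsewhere on chromosome 10, and there 1 neighbour did differ. Gm15343, a long noncoding RNA gene that precedes Ftcd and does not overlap it in RefSeq, had 5.78 in globule-containing areas and 8.38 in globule-free areas, a log2 difference of -2.59. Of the others, 4930483K19Rik had 5.21 in globule-containing areas and 5.14 in globule-free areas, Spatc1l was at background on both arrays, and Col6a2, a collagen gene, had 4.89 in globule-containing areas against 4.57, at background, in globule-free areas.

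**Figure D3:**
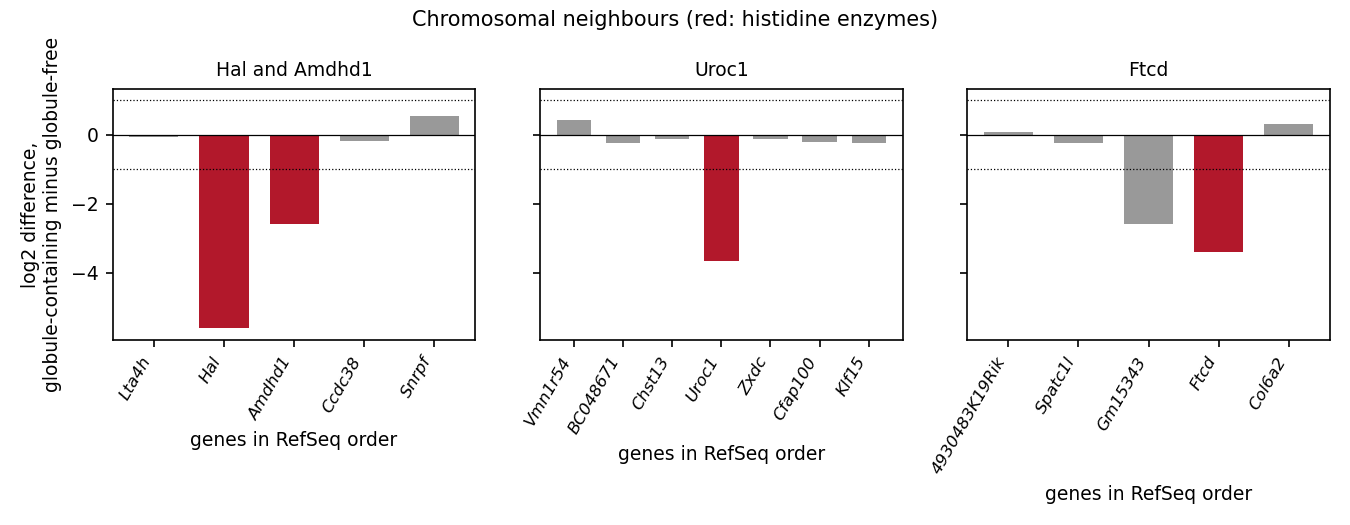
Log2 difference, globule-containing minus globule-free (vertical axis), around Hal, Uroc1 and Ftcd (histidine enzymes red, Amdhd1 beside Hal), with up to 3 neighbours on each side that the array measures under 1 gene (grey bars), in RefSeq order along the chromosome. Dotted lines mark 2-fold, and among the grey bars Gm15343, at -2.59, is the 1 past it.

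The genes with the most similar pair of values were found by distance in the plane of both log2 signals, among 10032 genes above the floor, which for 2 arrays is a likeness of 2 values only. Nearest to Hal were Igfals at a distance of 0.98, Etnppl at 1.03 and Got1 at 1.43, so no gene matched Hal closely. Nearest to Uroc1 were Mfsd2a (0.15), Cyp4a32 (0.29) and Igfbp2 (0.39). Nearest to Amdhd1 were Slc46a3 (0.08), Apoa4 (0.24) and Prkag1 (0.31). Nearest to Ftcd were Agxt (0.19), the peroxisomal glyoxylate aminotransferase, G6pc (0.23), the glucose-6-phosphatase of gluconeogenesis, and F11 (0.29), a clotting factor. Agxt had 8.52 in globule-containing areas and 12.15 in globule-free areas.

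Ftcd delivers a one-carbon unit to folate, and several enzymes that handle such units were lower too. Of 22 folate and one-carbon genes above the floor, 8 were lower and 0 higher by 2-fold or more and 14 lay within 2-fold, with a median log2 difference of -0.43 against 0.05 over all genes. Mthfd1, the cytosolic enzyme that processes the unit Ftcd makes, had 9.16 in globule-containing areas and 11.08 in globule-free areas. Aldh1l1, which oxidises the formyl group to carbon dioxide in the cytosol, had 11.61 in globule-containing areas and 13.55 in globule-free areas. Shmt1, the cytosolic serine hydroxymethyltransferase, had 8.02 in globule-containing areas and 9.90 in globule-free areas. These 3 were 3.78-fold, 3.84-fold and 3.67-fold lower, all by less than Ftcd.

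Gldc, of the mitochondrial glycine cleavage system, had the largest difference of the list, with 7.15 in globule-containing areas and 9.58 in globule-free areas, or 5.39-fold lower. Slc25a32, the mitochondrial folate carrier, was 3.04-fold and Gnmt, the glycine methyltransferase, 2.92-fold lower. The mitochondrial counterparts of the cytosolic enzymes, chosen after their values were seen, were within 2-fold where they could be measured, and Aldh1l2 and Mthfd2l were at background on both arrays. Shmt2 had 10.51 in globule-containing areas and 10.37 in globule-free areas, Mthfd1l had 5.92 in globule-containing areas and 6.00 in globule-free areas, and Mthfd2 had 5.23 in globule-containing areas and 5.11 in globule-free areas. None of the 22 folate genes differed by as much as any of the 4 histidine enzymes of the chain. By the probe set gap given above, the order of Gldc, at -2.43, against Amdhd1, at -2.58, and Ftcd is not resolved. Nor is that of Amdhd1 against Mthfd1, Aldh1l1, Shmt1 and Slc25a32.

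The chain also yields glutamate and ammonia. Of 7 genes of glutamate use above the floor, 3 were lower and 1 higher by 2-fold or more, with a median of -0.88. Got1, the cytosolic aspartate aminotransferase, had 8.29 in globule-containing areas and 12.78 in globule-free areas, a log2 difference of -4.49, between those of Hal and Uroc1. By the probe set gap given above, the order of Got1 and Uroc1 is not resolved. Aldh4a1, which forms glutamate from proline, was 3.13-fold and Gpt2, an alanine aminotransferase, 2.02-fold lower. Gclc, which uses glutamate for glutathione, was 2.84-fold higher, with 14.76 in globule-containing areas and 13.25 in globule-free areas. Glud1 and Glul are represented here only by probe sets of several genes and were not used.

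For ammonia, all 7 measured urea cycle genes had negative differences, 5 of them lower by 2-fold or more, with a median of -2.06. Arg1 (arginase) was 10.3-fold, Asl (argininosuccinate lyase) 9.44-fold, Cps1 (carbamoyl phosphate synthetase) 5.17-fold, Otc (ornithine transcarbamylase) 4.17-fold and the aspartate-glutamate carrier Slc25a13 3.18-fold lower. Nags had 6.35 in globule-containing areas and 7.29 in globule-free areas, and the ornithine carrier Slc25a15 had 13.03 in globule-containing areas and 13.65 in globule-free areas, both within 2-fold. Hal, Uroc1 and Ftcd each differed by more than all 7, and Amdhd1 by more than 5 of the 7. By the probe set gap given above, the order of Ftcd (-3.40) and Arg1 (-3.37) is not resolved. Uroc1 and Amdhd1 were also closer than that gap to some of the 7.

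Set beside 30 enzymes that break down other amino acids, the histidine chain lay at the low end. Of those 30, 19 were lower and 1 higher by 2-fold or more, with a median of -1.34. None had a lower difference than Hal or Uroc1, and only Agxt, at -3.63, had a lower one than Ftcd or Amdhd1. By the probe set gap given above, the order of Agxt, Uroc1 (-3.65) and Ftcd (-3.40) is not resolved. The next lowest were Dbt, of branched-chain amino acid breakdown, at -2.41, Pipox (pipecolate and sarcosine oxidase) at -2.18, Aass, of lysine breakdown, at -2.09, and Acmsd, of tryptophan breakdown, at -2.07. Amdhd1, at -2.58, was closer than that gap to each of these, and Ftcd to Dbt. Those orders are not resolved either. Csad, which makes the precursor of taurine from a product of cysteine, went the other way, with 9.06 in globule-containing areas and 6.16 in globule-free areas, or 7.45-fold higher. As the histidine chain was chosen for Hal's value, its place among these lists is a description.

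Hal, Uroc1 and Ftcd also belong to the periportal list. Without them, 12 of 15 periportal genes were lower and 0 higher by 2-fold or more, with a median of -2.37. Asl, Arg1 and Cps1, among the 12, were already counted in the urea cycle list. None of these 15 had a lower difference than Hal, 2 had a lower one than Uroc1, 3 than Ftcd and 6 than Amdhd1. Etnppl, the lowest at -4.91, was closer to Hal than the 90th percentile of the probe set gap, so their order is not resolved. Uroc1, Ftcd and Amdhd1 were also closer than that to some of the 15. Of 15 pericentral genes 2 were lower and 3 higher by 2-fold or more, with a median of 0.50. The sources used here do not say where in the lobule the areas lay, and the part of lobular position in the histidine enzymes' differences was not tested.

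**Figure D4:**
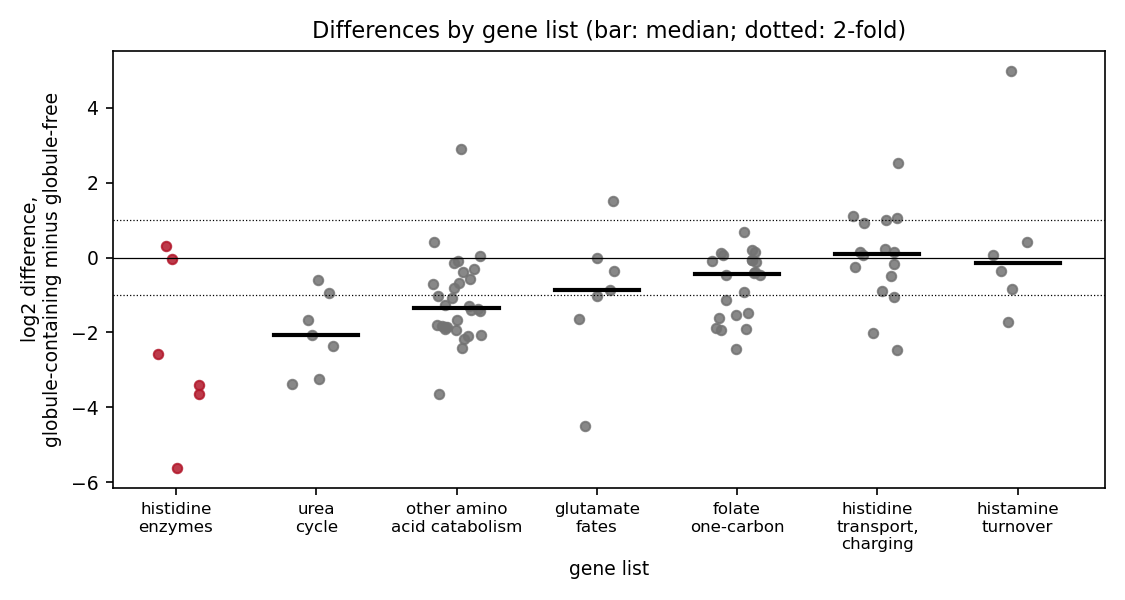
Log2 difference, globule-containing minus globule-free (vertical axis), of each gene above the floor in the histidine enzymes (red) and 6 lists around them (grey), with a bar at the median of each grey list and dotted lines at 2-fold. The urea cycle median is -2.06, that of other amino acid breakdown -1.34, and those of histidine transport and histamine turnover are 0.10 and -0.15.

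Genes that bring histidine into the cell went both ways. Of 16 genes of histidine transport, charging and dipeptides above the floor, 3 were lower and 4 higher by 2-fold or more in the deposited values, with a median of 0.10. For 1 of the 4, Slc7a8, the globule-free value was at background, and its fold is only at least 1.41. Slc38a3, the system N transporter that carries histidine and glutamine into hepatocytes, had 14.73 in globule-containing areas and 17.21 in globule-free areas, or 5.59-fold lower. Slc38a2, a sodium-coupled neutral amino acid transporter, was 4.01-fold lower, and Slc43a1, a transporter of large neutral amino acids, 2.06-fold lower. Slc3a2, the heavy chain of the exchangers for large neutral amino acids, had 9.96 in globule-containing areas and 7.43 in globule-free areas, or 5.77-fold higher. Its light chain Slc7a5 was 2.16-fold higher, and Slc15a3, a lysosomal carrier of peptides and histidine, 2.09-fold higher, on the array that also had the higher macrophage and stellate cell sums given above. Hars, the histidyl-tRNA synthetase, chosen after its value was seen, had 8.30 in globule-containing areas and 7.37 in globule-free areas.

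Around histamine, most genes were dim. Of 12 measured genes of histamine turnover and its receptors, 6 were at background on both arrays, the receptors Hrh2, Hrh3 and Hrh4 among them. Maoa and Maob, monoamine oxidases, differed in opposite directions. Maoa had 9.52 in globule-containing areas against 4.53, at background, in globule-free areas, which makes it at least 22.5-fold higher. Maob, which acts on methylhistamine, the product of Hnmt, had 11.75 in globule-containing areas and 13.48 in globule-free areas, or 3.32-fold lower. For mast cells and basophils, the main makers of histamine, 10 of 12 markers were at background on both arrays, among them Cpa3, Fcer1a, Ms4a2, Tpsb2, Cma1 and Mcpt4. The exceptions were Kit, with 6.06 in globule-containing areas and 5.58 in globule-free areas, and Hpgds, with 6.23 in globule-containing areas against 5.02, at background, in globule-free areas. The list's summed signal was 318 in globule-containing areas and 273 in globule-free areas, so the low Hdc signal stands beside mast cell markers that were nearly all at background.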

How the data were processed

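The deposited table holds 1 log2 signal per probe set for 72688 probe sets on each of 2 arrays, made by the authors with the Transcriptome Analysis Console per the submitters' processing notes; the sources used here name no version, normalization, background step or build, and the log2 scale was read from the values. RNA was isolated with a Pico Pure kit and amplified with NuGen Ovation WTA System V2, per the labels' protocols.

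Probe sets were named from the platform annotation: 30604 named 1 gene, 2146 several (left out) and 39938 had none listed. Through 22818 Entrez matches to RefSeq (GRCm38.p6), 827 symbols were updated. Probe sets of a gene were averaged, giving 30142 genes, of which 15023 reached the floor of 4.76. Background is the 95th percentile of 1721 odorant and vomeronasal receptor probe sets. A fold with 1 side at background uses that level and is written "at least"; counts past 2-fold use the deposited values. Differences are globule-containing minus globule-free log2 signals. With 1 array a group no test was possible; the precision is limited by the number of arrays.

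The members, lists and motifs were chosen with earlier results of these data known. Named genes are the 6 members, up to the 6 largest differences past 2-fold in each pathway list (all measured genes for the urea cycle, the 1 such list of at most 8 genes), the 3 genes nearest to each of the 4 chain enzymes, leaving out predicted, RIKEN, small RNA, receptor and pseudogene symbols, and 3 neighbours on each side. Alternatives covered scaling, floor, threshold and choice of probe set. The counting code was run on simulated arrays with planted changes past 2-fold and little noise, which checks the code and not the error of these arrays. Python 3.11.15, numpy 2.4.6, pandas 2.3.3 and statsmodels 0.14.6 were used.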

Additional observations from a re-analysis of the deposited data

How the results depend on the processing

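No paired analysis was possible because each group is 1 array. Over the scalings, Hal ranged from -5.76 to -5.61, Uroc1 from -3.75 to -3.65, Ftcd from -3.55 to -3.40 and Amdhd1 from -2.71 to -2.58. Hnmt ranged from -0.15 to -0.05. With the raising of dim values to background, added after seeing the data, Hdc ranged from 0.23 to 0.35. That raising left the other members unchanged. Each member has a single probe set, so the choice of probe set could not move its value or the member counts. The measured genes of the pathway lists also have 1 each, so taking the brightest probe set could not move the list medians. Those settings are nevertheless among the 112 counted below. The count of 4 members lower and 0 higher was the same at 1.5-fold and 4-fold. Over all genes, the 790 lower became 1786 at 1.5-fold and 198 at 4-fold, and the 972 higher became 2406, 213 and, with the floor at the 75th percentile, 642; fewer or more genes pass by construction. With that floor, list medians were -1.12 for folate, -0.48 for transcription factors and -0.36 for histamine turnover. Without a floor the glutamate median was -0.35. After quantile normalization and loess, the medians were -1.10 and -1.08 for glutamate and -2.30 and -2.29 for the urea cycle. Those of the genes inducible by fasting and hormones were -2.06 and -2.07. The cause of these shifts was not tested. In all, 97 of 112 recomputed values stayed within their limits: the same side of 2-fold for a gene, 1.5 times for a count, and 0.17 for a median. The transport median, 0.10, was -0.01 without a floor. Signals near background bound what can be said of Hdc.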

Other observations

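Glucagon and glucocorticoids are known to raise hepatic amino acid breakdown. The genes listed as inducible by fasting or these hormones did not share 1 direction, and the part of the hormones was not tested. Of 11 measured, 8 were lower and 3 higher by 2-fold or more in globule-containing areas, none lay within 2-fold, and the median log2 difference was -1.83. All 8 lower genes also stand in lists above, so the counts overlap. Got1 and Gpt2 are in the glutamate list and Tat and Tdo2 in that of other amino acids. Cps1 is in the urea cycle and periportal lists, and G6pc, Pck1 and Fbp1 are in the periportal list. G6pc had 8.65 in globule-containing areas and 12.19 in globule-free areas, and Pck1, the gluconeogenic carboxykinase, had 14.17 in globule-containing areas and 16.89 in globule-free areas. Igfbp1, a secreted growth factor binding protein that fasting raises, had 12.29 in globule-containing areas and 7.81 in globule-free areas, or 22.4-fold higher, and Pdk4, the pyruvate dehydrogenase kinase, was 9.86-fold higher.

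Among 18 hormone receptors and liver transcription factors above the floor, 6 were lower and 1 higher by 2-fold or more, with a median of -0.30. Onecut1, a hepatocyte homeobox factor, had 8.06 in globule-containing areas and 10.25 in globule-free areas, Ppargc1a, a coactivator of gluconeogenesis, had 7.03 in globule-containing areas and 9.07 in globule-free areas, and Nr0b2, the small heterodimer partner, had 7.40 in globule-containing areas and 9.30 in globule-free areas. Nr1i3, a xenobiotic receptor, was 2.84-fold, Ppara, the fatty acid receptor, 2.80-fold and Foxa3, a forkhead factor, 2.09-fold lower. The glucagon receptor Gcgr, with 8.99 in globule-containing areas and 8.60 in globule-free areas, and the glucocorticoid receptor Nr3c1, with 8.90 in globule-containing areas and 9.26 in globule-free areas, both chosen after their values were seen, lay within 2-fold.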
